A study of Mus musculus with 9 samples.

Results

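The comparison described here sets 2K, intestinal tract of mice fed a diet deficient in tryptophan and niacin until day 28, against R, intestinal tract of mice fed a normal diet until day 28. Both groups of mice drank water with dextran sulfate sodium (DSS) freely from day 18; DSS is a sulfated sugar polymer toxic to the epithelium of the gut. Each side is 1 library, so 2 of the 9 libraries of the series enter the main comparison, and 19035 of the 55468 genes in the deposited table had at least 1 FPKM (fragments per kilobase of transcript, relative to library size) in 2K or R. The series asks how diets lacking methionine, tryptophan and niacin act on the gut in a DSS model of inflammatory bowel disease.

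The other 7 libraries are used as further points of comparison. 3K came from mice on a diet deficient in methionine, tryptophan and niacin until day 28, and 1K from mice on a methionine-deficient diet until day 28, both with DSS from day 18. 3K against 1K is therefore the same change of diet as 2K against R on a methionine-deficient background, and it shares no library with 2K against R. 2KR, 1KR and 3KR came from mice returned to a normal diet after day 28 and sampled at day 33. RR came from mice on a normal diet throughout, sampled at day 33, and these 4 groups had DSS from day 18 as well. C came from control mice on normal feed sampled at day 34, for which the labels name no DSS. The labels give no strain, sex, animal number or gut segment.

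Tryptophan is an essential amino acid, used for protein, for serotonin in enterochromaffin cells and, along the kynurenine pathway, for NAD. Niacin feeds NAD synthesis by the Preiss-Handler and salvage routes, so a diet lacking both nutrients removes the dietary inputs to this coenzyme. Cells short of an amino acid activate the kinase GCN2 and the transcription factor ATF4, which raises genes for amino acid uptake and synthesis. Loss of NAD or of tryptophan metabolites is known to affect intestinal barrier and immune function, and in humans lack of both nutrients causes pellagra, a disease with diarrhoea.

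With 1 library a side there is no spread between replicates, and no test was made. A gene is called higher or lower below where log2(FPKM + 0.5) differed by at least 1, which is 2-fold, between the 2 libraries. By that count 5494 genes (28.9% of those kept) were 2-fold apart, 2801 (14.7%) higher in 2K and 2693 (14.1%) lower, and the median difference over all kept genes was 0.02. Counts of list members given below are to be read beside these shares of 14.7% and 14.1%. 2K exceeded every other library for 3743 genes (19.7%) and lay below every other library for 2966 genes (15.6%). In 3K against 1K, 2785 of 18573 genes (15.0%) were higher and 2774 (14.9%) lower. Among 17468 genes kept in both pairs, 1009 (5.78%) were higher in both and 1083 (6.20%) lower in both. The 1009 genes made up 45.9% of those higher in 2K and 41.8% of those higher in 3K, while 171 genes higher in 2K than in R were lower in 3K than in 1K. Scaling the libraries to a common sum of protein-coding genes moved the median of all genes to -0.48 and the counts to 1758 higher and 5079 lower, so every difference below is relative to the scale of the deposited FPKM.

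The libraries held an estimated 14.1 M (3KR) to 30.6 M (2KR) mapped fragments, with 23.1 M for 2K and 28.5 M for R. At these depths 1 FPKM of a 2-kb gene stands for 46.2 fragments in 2K and 56.9 in R. The intestinal transcription factor Cdx2 had 14.0 FPKM in 2K, against 47.9 FPKM in R and between 46.6 and 55.9 FPKM in the 5 libraries from day 33 and day 34. Villin (Vil1), the actin bundler of the brush border, had 151 FPKM in 2K and 671 FPKM in R. Cdx2 and Vil1 were picked as textbook markers after their values were seen. Both libraries thus carried the defining transcripts of intestinal epithelium, at lower values in 2K.

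Transcripts of the pancreas, stomach and liver were far higher in 2K. Genes on lists for these organs and for squamous forestomach took 18.0% of all summed FPKM in 2K and 9.91% in 3K, but between 0.0854% and 0.161% in the 7 other libraries. The pancreatic acinar list held 7.30% in 2K, 0.0535% in R and 9.70% in 3K. Its members include the trypsinogen Try5, with 3665 FPKM in 2K against 0.107 FPKM in R. The hormone gene Ins2 of pancreatic islets had 342 FPKM in 2K against 0.117 FPKM in R, and 322 FPKM in 3K against a listed 0 in 1K. Acinar and islet transcripts were thus as high in 3K as in 2K, whereas R and 1K were near 0.

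Stomach and liver transcripts were high in 2K and much lower in 3K. The stomach list held 2.64% of summed FPKM in 2K, 0.0041% in R and 0.0182% in 3K. Tff1, a secreted peptide of gastric surface mucous cells, had 8134 FPKM in 2K and was listed at 0 in R, 3K and 1K. Pgc, the pepsinogen of gastric chief and neck cells, had 4846 FPKM in 2K, was listed at 0 in R and had 0.260 FPKM in 3K. The liver list held 8.0% in 2K, 0.0704% in R and 0.106% in 3K. Hpx, the haem-binding plasma protein hemopexin, had 6159 FPKM in 2K and 19.4 FPKM in R, against 28.6 FPKM in 3K. The liver list was lowest in 1K, at 0.00859%, so that 37 of the 43 liver genes kept in the second pair were also higher in 3K than in 1K. All 59 kept liver genes were higher in 2K, 22 of 24 stomach genes and 33 of 35 acinar genes, with list medians of 7.002, 7.51 and 7.62 on the log2 scale. In 2K these transcripts cannot be told apart from a response of intestinal cells by the FPKM alone, and how they entered the library was not tested. Reads of near-identical copies, such as trypsinogens, insulins, amylases and alpha-defensins, can be divided between genes, so single values in those families are uncertain.

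**Figure D1:**
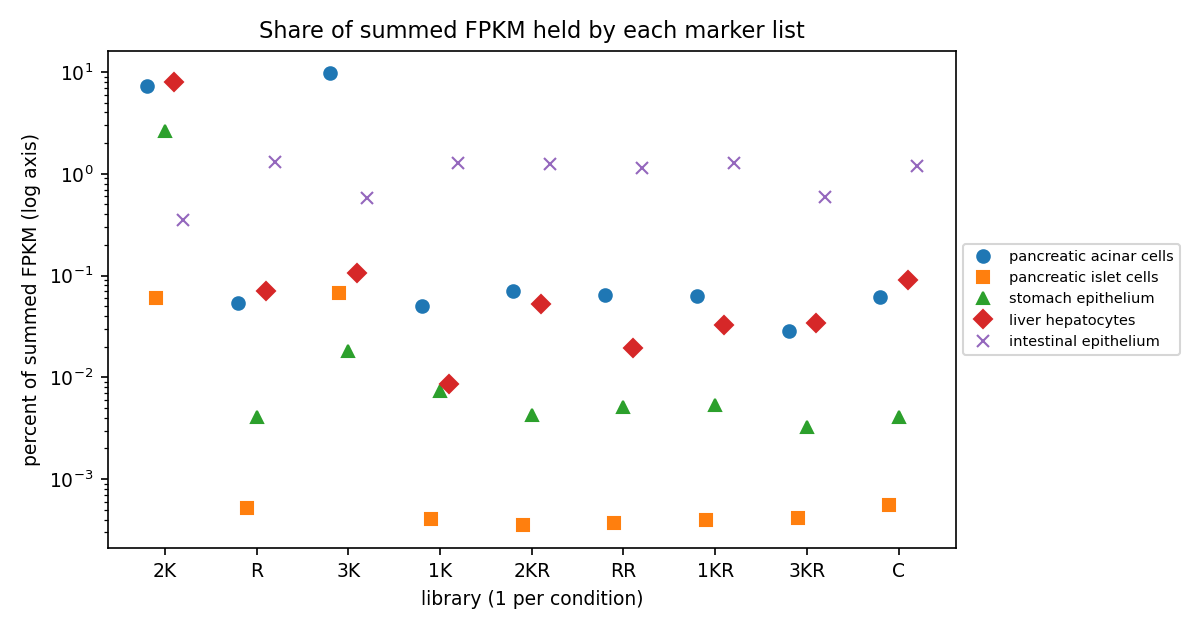
Percent of summed FPKM (log axis) held by the marker lists of 4 organs' cells and by the intestinal epithelium list in each of the 9 libraries, 1 point per list and library. In 2K the acinar and liver lists hold 7.30% and 8.0%, above the intestinal epithelium list; in 3K the acinar list is as high and the liver and stomach lists are not.

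Leaving the organ list genes out changed the counts little, to 2677 higher (14.2% of 18906 genes) and 2691 lower (14.2%). Of the 2801 higher genes, 124 were on an organ list, 1220 had under 1 FPKM in R, and 427 had under 1 FPKM in all 8 other libraries. A further measure of what remains is the level in 3K, which held acinar RNA but little from stomach and liver. Liver genes were lower in 3K than in 2K by a median of 6.29 on the log2 scale and stomach genes by 5.81, while acinar genes differed by 0.22 in favour of 3K. On no organ list and with at least 1 FPKM in R, 1529 genes were higher in 2K. Of these, 581 were also at least 2-fold higher in 3K than in 1K, and 453 of the 581 had a 3K level within 2-fold of 2K or above it. The remaining 948 were not 2-fold higher in 3K than in 1K. This measure has no bearing on pancreatic transcripts, which were alike in 2K and 3K. Being higher in both pairs does not set a gene apart from organ RNA, since 37 of 43 liver genes and 33 of 35 acinar genes were so. The organ lists, with 150 genes of the table, are also not complete, so the 581 genes can include organ transcripts.

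Across the 17468 genes kept in both pairs the differences in 2K against R and in 3K against 1K had a Pearson r of 0.50, and r was 0.43 across the 17373 genes on no organ list. The points are genes of the same 4 libraries and are not independent, so the value is a description.

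**Figure D2:**
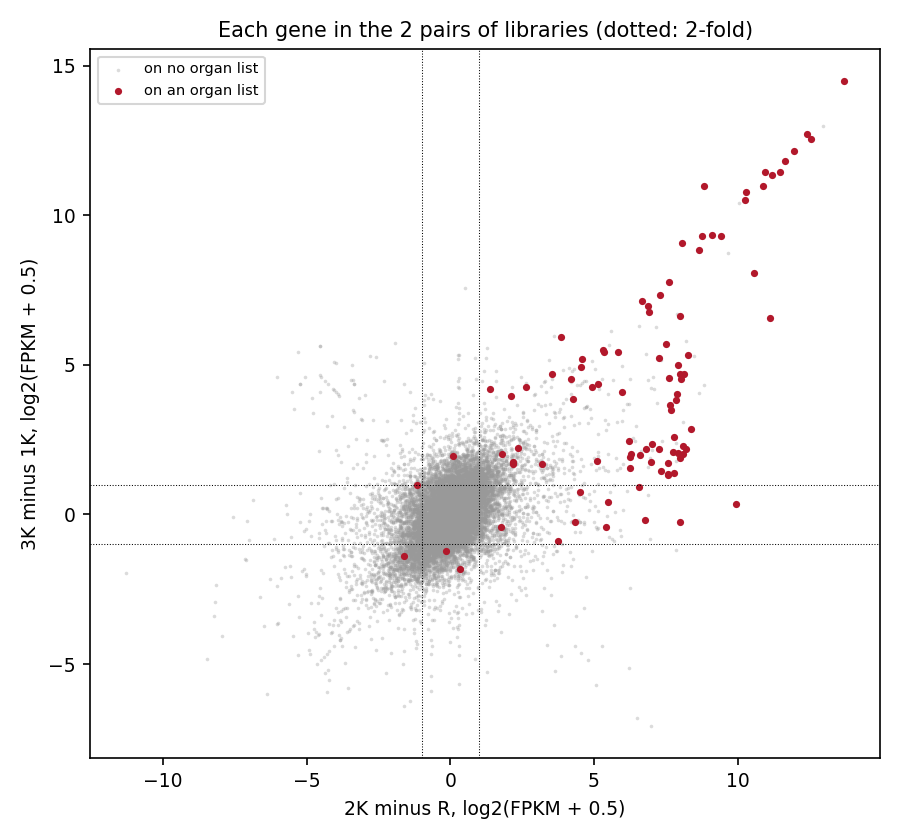
Each point is a gene kept in both pairs, with its difference of log2(FPKM + 0.5) in 2K minus R on the horizontal axis and in 3K minus 1K on the vertical axis; dotted lines mark 2-fold and red points are organ list genes. The upper right holds the 1009 genes higher in both pairs and the lower left the 1083 lower in both; liver and stomach genes lie to the right, with a smaller difference in 3K minus 1K, and acinar genes lie along the diagonal.

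The intestinal epithelium was lower in 2K as a class. Of 22 epithelial genes, 15 were lower and 1 was higher, with a median of -1.49, against 0.02 over all genes, which corresponds to 35.5% of the level in R. 2K was below all 8 other libraries for 19 of the 22. In 3K against 1K the median was -1.58, and the same 15 genes were lower in both pairs. Mep1b, a meprin protease of the brush border, had 63.0 FPKM in 2K against 455 in R, and 153 FPKM in 3K against 582 in 1K. Pls1, the microvillus bundling protein plastin 1, had 105 FPKM in 2K against 539 in R, and 208 FPKM in 3K against 810 in 1K. Within the 2 pairs the organ transcripts moved with this difference, since 2K and 3K are the libraries that carry them. 3KR departed from this. The epithelium list held 0.350% of summed FPKM in 2K, 0.583% in 3K and 0.586% in 3KR, against 1.13% (RR) to 1.30% (R) elsewhere. The organ lists held 0.0942% in 3KR. Small noncoding RNA and ribosomal RNA genes, mitochondrial ones included, together held 44.4% of summed FPKM in 3KR, the largest share of the 9 libraries. Their part in the shares and levels of 3KR was not tested. In bulk tissue, fewer epithelial cells and less RNA per cell cannot be told apart. The exception was Tmprss15, the duodenal protease that activates trypsinogen, with 26.6 FPKM in 2K and a listed 0 in R.

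Enterocyte and goblet cell genes were lower to about the same degree. Of 25 genes of absorptive enterocytes, 15 were lower and 3 higher, against 14.1% and 14.7% of all genes. The median was -1.20 in 2K against R and -1.89 in 3K against 1K, and the same 15 were lower in both pairs. Anpep, an aminopeptidase that trims peptides at the brush border, had 262 FPKM in 2K against 3258 in R, and 938 FPKM in 3K against 4490.3 in 1K. Naaladl1, another brush border peptidase, showed the widest gap among them, with 3.17 FPKM in 2K against 1060 in R, and 98.4 FPKM in 3K against 505 in 1K. Of 19 goblet cell genes, 12 were lower and 1 higher, against the same shares of all genes. Their median was -1.44 in 2K against R and -2.02 in 3K against 1K. Muc2, the main gel-forming mucin of the intestine, had 765 FPKM in 2K against 7863 in R, and 1457 FPKM in 3K against 5892 in 1K. Atoh1, the transcription factor of the secretory lineage, had 1.18 FPKM in 2K against 13.9 in R, and 1.03 FPKM in 3K against 11.3 in 1K. Both genes were therefore low in both tryptophan- and niacin-deficient libraries of day 28. Set to the median of the epithelium list instead of the deposited scale, the medians of enterocyte and goblet genes became 0.29 and 0.06.

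**Figure D3:**
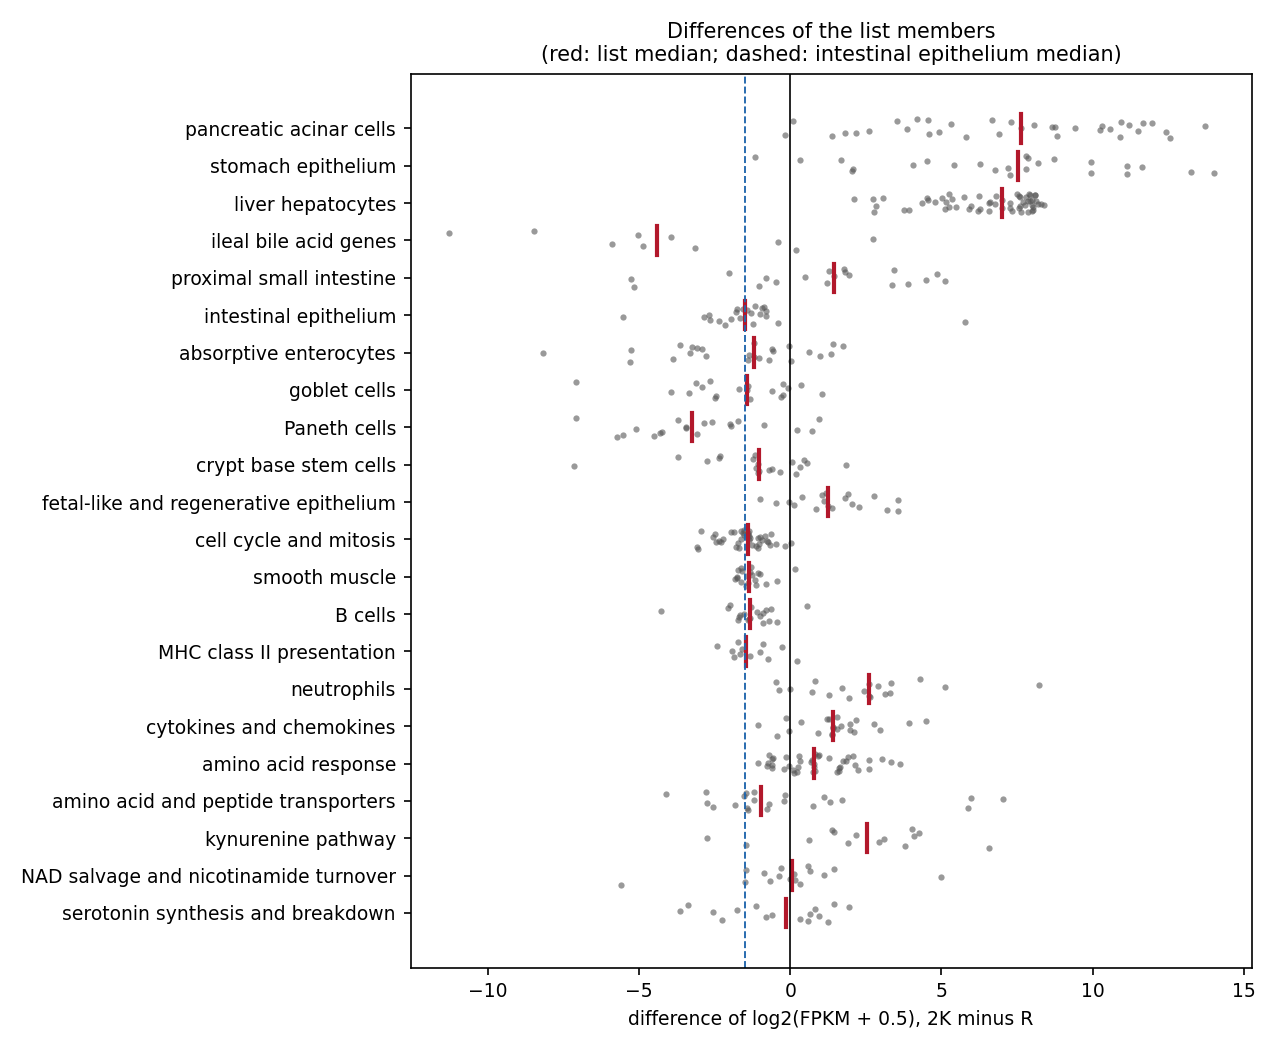
Difference of log2(FPKM + 0.5), 2K minus R, for each kept member of 22 gene lists; each point is a gene, red bars are list medians and the dashed line is the intestinal epithelium median of -1.49. Organ lists lie near 7 and neutrophil, cytokine and fetal-like epithelium lists above 0. Enterocyte, goblet, cell cycle, smooth muscle, B cell and MHC class II lists lie near the dashed line, and the Paneth list lies below it, at -3.26.

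A smaller set of genes was lower by more than the epithelium as a whole. Relative to the epithelium medians of the 2 pairs, 537 genes were lower by at least 2-fold in 2K against R, of which 204 are protein coding and 273 lay below all other libraries, and 102 genes were lower beyond the epithelium in both pairs. By the rule of being lower in both pairs, the leading genes were Cubn, the ileal receptor for intrinsic factor and vitamin B12, and Enpp7, the sphingomyelinase of the gut. Cubn had 0.304 FPKM in 2K against 283 in R, and 3.99 FPKM in 3K against 127 in 1K. Enpp7 had 1.81 FPKM in 2K against 569 in R, and 24.6 FPKM in 3K against 422 in 1K. In the 5 libraries from days 33 and 34 Cubn ranged between 78.6 and 219 FPKM and Enpp7 between 144 and 554 FPKM, all above 2K and 3K. Nts, the peptide neurotensin of ileal endocrine cells, had 0.299 FPKM in 2K against 35.4 in R, and 2.00 FPKM in 3K against 41.2 in 1K. The sodium-coupled transporters Slc5a11, for inositol, and Slc5a4b, of the glucose transporter family, were lower in both pairs by 3.87 and 4.95 on the log2 scale in 2K against R. Nos2, the inducible nitric oxide synthase, had 0.957 FPKM in 2K against 95.2 in R, and 1.72 FPKM in 3K against 27.5 in 1K. Among the later libraries, 2KR, RR and 1KR ranged between 1.22 and 3.13 FPKM, while 3KR had 26.0 and C 17.2 FPKM.

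Markers of position along the gut differed between 2K and R, in ways that the second pair shared in part. Of 10 ileal bile acid genes, 7 were lower in 2K and 1 higher, with a median of -4.39. Fabp6, the ileal bile acid binding protein, had 0.282 FPKM in 2K, 1946 in R, 88.6 in 3K and 342 in 1K, against 2.90 in RR, 0.545 in 1KR and 3486 in C. Its level thus ran between 2.90 and 3486 FPKM among RR, R and C, whose mice were never on a deficient diet. Slc10a2, the ileal bile acid importer, had 1.28 FPKM in 2K against 50.9 in R, but 1.58 in RR. Among 19 genes of the proximal small intestine 12 were higher and 4 lower, with a median of 1.44, but in 3K against 1K 3 were higher and 10 lower, with a median of -1.12. Lct, the lactase of jejunal enterocytes and the member with the widest gap, had 3.71 FPKM in 2K against 162 in R, and 27.8 FPKM in 3K against 303 in 1K. Pdx1, the duodenal and pancreatic transcription factor, had 22.0 FPKM in 2K against 0.145 in R, and 4.15 FPKM in 3K against 0.587 in 1K. Cybrd1, the duodenal ferric reductase, had 97.9 FPKM in 2K against 2.87 in R, and 15.4 FPKM in 3K against 0.863 in 1K. Pdx1 and Cybrd1 are 2 of the 3 members that were higher in both pairs. With RR in place of R the proximal median was -0.68 and the ileal median -1.39, so the direction of the proximal list depended on which normal diet library was set against 2K. Of 15 kept Hox genes, which mark position along the body axis, 5 were lower and 1 was higher in 2K, against 14.1% and 14.7% of all genes. The Hox medians were -0.66 in 2K against R and 0.59 in 3K against 1K. Hoxc6 and Hoxc8 had 0.0850 and 0.0770 FPKM in 2K against 7.41 and 5.59 FPKM in R. The higher one was Hoxa10, with 1.11 FPKM in 2K against 0.0420 in R, and 1.45 FPKM in 3K against a listed 0 in 1K. The part of the intestine sampled is not in the labels and cannot be told apart from the diet.

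Genes of Paneth and crypt base stem cells were lower in 2K against R. Of 20 Paneth cell genes, 16 were lower and none was higher in 2K, with a median of -3.26, while in 3K against 1K the median was 0.21 and 1 gene of 18 was lower. Lyz1, the Paneth lysozyme, had 109 FPKM in 2K against 2149 in R, but 554 FPKM in 3K against 484 in 1K. Pla2g2a, a bactericidal phospholipase, had 39.3 FPKM in 2K against 2110 in R, and 441 FPKM in 3K against 351 in 1K. Both 3K and 1K were below R, so in the second pair the methionine-deficient library was itself low. Of 20 crypt base stem cell genes, 11 were lower and 1 higher, with a median of -1.04, while in 3K against 1K the median was -0.08, with 5 genes lower in both pairs. Olfm4, a marker of crypt base cells, had 1.03 FPKM in 2K against 214 in R, and 0.916 FPKM in 3K against 3.51 in 1K. Lgr5, the Wnt-target receptor of stem cells, had 0.506 FPKM in 2K against 6.28 in R, and 0.492 FPKM in 3K against 1.75 in 1K. After the return to a normal diet, Olfm4 had 274 FPKM in 2KR against 200 in RR, and Lyz1 had 3407 FPKM in 2KR against 2048 in RR.

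Cell division genes were lower in 2K. Of 40 genes of the cell cycle and mitosis, 30 were lower and none higher, with a median of -1.39, and 2K was the lowest of the 9 libraries for 37. Top2a, the topoisomerase of dividing cells, had 3.49 FPKM in 2K against 33.6 in R, and 14.5 FPKM in 3K against 14.2 in 1K. In 3K against 1K the list's median was 0.38 and 1 gene was lower in both pairs, so the second pair did not show it. Relative to the epithelium the median was 0.10 in 2K against R.

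Genes of fetal-like and regenerating epithelium went the other way. Of 19 such genes, 13 were higher in 2K and none lower, against 14.7% and 14.1% of all genes. The median was 1.26 in 2K against R and 1.29 in 3K against 1K, and 10 were higher in both pairs. Clu, the marker of revival stem cells, had 656 FPKM in 2K against 55.2 in R, and 231 FPKM in 3K against 94.4 in 1K. In the 5 later libraries it ranged between 19.5 and 50.6 FPKM, below both. Plaur, the urokinase receptor of migrating epithelium and myeloid cells, had 25.1 FPKM in 2K against 4.77 in R, and 31.4 FPKM in 3K against 7.91 in 1K. It was higher still in 3KR, with 74.5 FPKM, and had at most 4.40 FPKM in 2KR, RR, 1KR and C. Areg, an EGF receptor ligand released in repair, had 19.0 FPKM in 2K against 2.37 in R, and 22.3 FPKM in 3K against 10.4 in 1K. The list's level in 3K lay a median of 0.11 below 2K, where the liver list lay 6.29 below and the acinar list 0.22 above. Clu, however, is also an abundant liver and stomach transcript, whose part in the 2K value was not tested. The part of pancreatic RNA and of myeloid cells in the list's values was not tested either.

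Genes of the kynurenine pathway, which turns tryptophan into NAD, were higher in 2K by count, led by steps for which the liver is the known main site. Of 14 kept genes, 11 were higher and 2 lower, against 14.7% and 14.1% of all genes, with a median of 2.55. In 3K against 1K, however, the median was -0.54 and none of the 11 was higher. Tdo2, the hepatic dioxygenase that opens the tryptophan ring, had 242 FPKM in 2K, 2.05 in R, 2.29 in 3K and 0.960 in 1K. Haao, which makes quinolinate, had 43.2 FPKM in 2K against 2.04 in R, and 2.37 FPKM in 3K against 1.06 in 1K. Qprt, which converts quinolinate to the NAD precursor, had 13.4 FPKM in 2K against 0.497 in R, and 0.442 FPKM in 3K against 0.572 in 1K. Kmo and Kynu, which act between them, had 12.1 and 10.3 FPKM in 2K against 0.959 and 2.34 FPKM in R. Each of these 5 genes was highest in 2K of all 9 libraries and low in 3K, as the liver list was.

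The 2 lower genes of the pathway are expressed in intestinal cells. Ido1, the dioxygenase of epithelial and myeloid cells that opens the same ring, had 0.345 FPKM in 2K against 5.21 in R, and 0.733 FPKM in 3K against 2.40 in 1K. In the 5 later libraries it ranged between 2.07 and 10.5 FPKM, so 2K and 3K were the lowest of the 9. Nadsyn1, the last step of NAD synthesis from tryptophan or nicotinic acid, had 9.34 FPKM in 2K against 26.8 in R, and 7.16 FPKM in 3K against 35.1 in 1K. For Nadsyn1 too, 2K and 3K lay below all others, whose lowest value was 15.5 FPKM in 3KR. Its difference of -1.47 in 2K against R was close to the epithelium median of -1.49, whereas that of Ido1 was -2.76.

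Genes that take up and salvage niacin were not set apart from other genes by their count. Of 16 kept genes, 3 were higher and 3 lower in 2K, near the 14.7% and 14.1% of all genes, with a median of 0.07, and in 3K against 1K 2 were higher and 9 lower, with a median of -1.03. Slc5a8, a sodium-coupled carrier that also takes up nicotinate, had 0.312 FPKM in 2K against 38.5 in R, and 11.5 FPKM in 3K against 39.2 in 1K. Slc12a8, described as an intestinal transporter of nicotinamide mononucleotide, had 8.59 FPKM in 2K against 25.1 in R, and 8.33 FPKM in 3K against 17.7 in 1K. These 2 carriers and Nadsyn1 were lower in both pairs. Slc5a8 had 9.86 FPKM in RR, whose mice were never on a deficient diet, and 7.81 FPKM in 1KR, both below its level in 3K. Naprt, which starts the nicotinic acid route, had 27.5 FPKM in 2K against 50.2 in R, and 22.3 FPKM in 3K against 85.1 in 1K. Nampt, which starts the nicotinamide route, had 37.2 FPKM in 2K against 23.6 in R, but 22.3 FPKM in 3K against 70.9 in 1K. Nampt was therefore opposite in sign in the 2 pairs, at 0.65 and -1.65. Nnmt, the liver-abundant enzyme that methylates nicotinamide, had 83.0 FPKM in 2K and between 0.115 and 2.14 FPKM in all 8 other libraries.

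Among 18 genes whose proteins consume NAD, 2 were higher and 4 lower, against 14.7% and 14.1% of all genes, with a median of -0.16. Parp14, an interferon-induced ADP-ribosyltransferase, had 10.9 FPKM in 2K against 28.4 in R, and 10.8 FPKM in 3K against 28.7 in 1K. Sirt1, the nuclear deacetylase, differed by -0.13, with 10.5 FPKM in 2K and 11.5 FPKM in R.

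Serotonin genes went both ways. Of 16 kept genes, 3 were higher and 6 lower in 2K, against 14.7% and 14.1% of all genes. With 8 above and 8 below 0 the median was -0.14, and in 3K against 1K it was -1.04. The 4 genes lower in both pairs include Maoa, Maob and Slc6a4. Maoa, the monoamine oxidase that breaks down serotonin, had 8.75 FPKM in 2K against 116 in R, and 15.0 FPKM in 3K against 165 in 1K. Across the 5 later libraries it ranged between 85.1 and 304 FPKM, with no overlap. Maob, its paralogue, had 8.18 FPKM in 2K against 50.4 in R, and 6.10 FPKM in 3K against 77.7 in 1K. The serotonin transporter Slc6a4, which clears serotonin into enterocytes, had 9.70 FPKM in 2K against 47.7 in R, and 24.9 FPKM in 3K against 80.4 in 1K. Synthesis genes, too, went both ways. Tph1, the rate-limiting hydroxylase of enterochromaffin cells, had 8.57 FPKM in 2K against 3.34 in R, but 2.80 FPKM in 3K against 7.49 in 1K. Ddc, which makes serotonin from its precursor, had 17.8 FPKM in 2K against 39.8 in R, and 21.1 FPKM in 3K against 42.2 in 1K. Tph1 is also expressed in endocrine cells of the stomach and in stimulated islets, and its part from these was not tested.

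**Figure D4:**
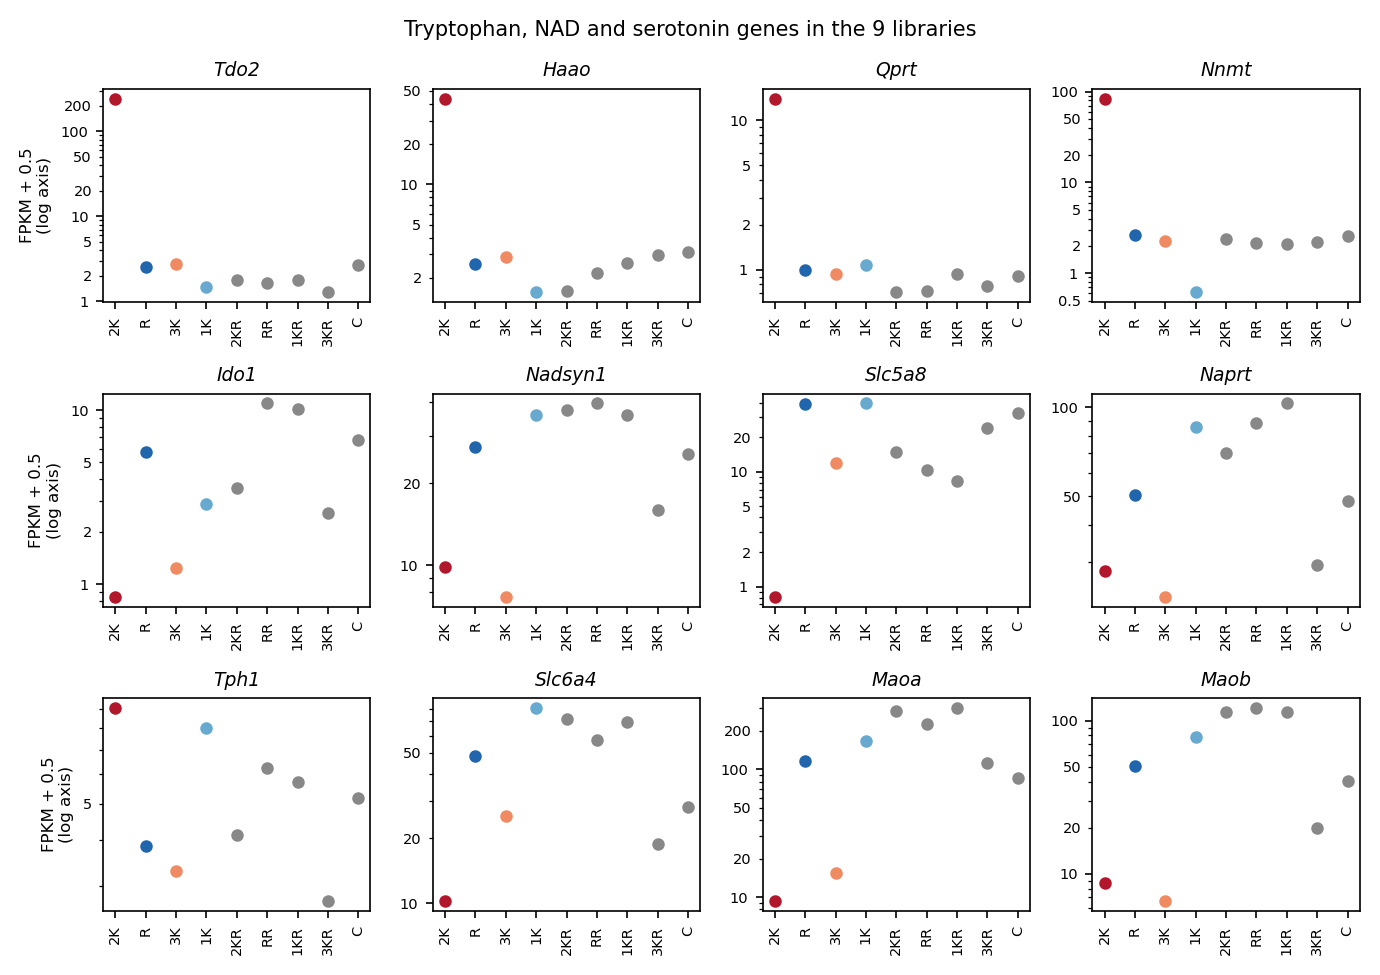
FPKM + 0.5 (log axis, a separate range in each panel) of 12 genes of tryptophan, NAD and serotonin metabolism in the 9 libraries, 1 point per library, with 2K and R at the left and 3K and 1K beside them. The top row is high in 2K alone, with Tdo2 at 242 FPKM; Nadsyn1, Naprt, Maoa, Maob and Ido1 have their 2 lowest values in 2K and 3K.

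The aryl hydrocarbon receptor senses tryptophan metabolites among other ligands. Of 15 kept genes of this pathway, 7 were higher and 2 lower in 2K, against 14.7% and 14.1% of all genes. The medians were 0.51 in 2K against R and -0.63 in 3K against 1K. Aldh3a1, an aldehyde dehydrogenase of stomach and other surface epithelia, had 212 FPKM in 2K, and between 0.0200 and 0.168 FPKM in the 8 others. The receptor gene Ahr itself had 6.63 FPKM in 2K and 6.30 FPKM in R. Cyp1a1, the classic target, stayed under the floor with 0.0320 FPKM in 2K and 0.209 FPKM in R, and was lower in 3K, with 0.0570 FPKM, than in 1K, with 1.58 FPKM. Ahr and Cyp1a1 were added as the receptor and its textbook target after their values were seen. None of the 7 higher genes was higher in both pairs.

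The amino acid response was higher in part. Of 42 kept genes, 16 were higher and 1 lower in 2K, against 14.7% and 14.1% of all genes, with a median of 0.78 in both pairs, and 9 were higher in both. Nupr1, a stress-induced chromatin protein, had 496 FPKM in 2K against 39.9 in R, and 503 FPKM in 3K against 7.51 in 1K. Ddit4, the inhibitor of mTORC1 signalling also called REDD1, had 123 FPKM in 2K against 19.99 in R, and 89.96 FPKM in 3K against 31.2 in 1K. Slc7a11, the cystine importer, had 9.56 FPKM in 2K against 1.62 in R, and 5.47 FPKM in 3K against 0.979 in 1K. These 3 genes were higher in both pairs, and 3KR alone among the others reached 14.2 FPKM of Slc7a11. Cth, which makes cysteine and is abundant in liver, had 130 FPKM in 2K against 15.5 in R, but 6.82 FPKM in 3K against 19.8 in 1K. Nupr1 is also a pancreatic stress gene, and its part from acinar cells was not tested.

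The classic ATF4 targets were less uniform. The following 6 genes were picked after their values were seen. Asns, asparagine synthetase, had 50.7 FPKM in 2K against 26.1 in R, and 62.8 FPKM in 3K against 28.3 in 1K, differences of 0.94 and 1.14. Chac1, which degrades glutathione, had 5.66 FPKM in 2K against 2.03 in R, and 4.08 FPKM in 3K against 0.829 in 1K. Slc7a5, the carrier of large neutral amino acids including tryptophan, had 12.6 FPKM in 2K against 3.78 in R, and 23.6 FPKM in 3K against 3.23 in 1K. These 3 genes had their 2 highest values of the 9 libraries in 2K and 3K. 2K and 3K are also the 2 libraries with a high acinar share, 7.30% and 9.70% of summed FPKM. The part of acinar cells in the values of these 3 genes was not tested. Trib3 had 8.94 FPKM in 2K against 5.14 in R, but 8.04 FPKM in 3K against 16.5 in 1K, and Ddit3, the stress factor CHOP, 6.78 FPKM in 2K against 10.5 in R. Psat1, of serine synthesis, had 4.04 FPKM in 2K against 7.22 in R, so the named targets were not all on 1 side. The tryptophanyl-tRNA synthetase gene Wars, likewise picked later for its substrate, had 35.8 FPKM in 2K and 32.6 FPKM in R.

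ATF4 dimers bind a composite element written TGATGNAA. It was looked for on both strands in the 250 bases before the gene start in RefSeq's promoter table (GRCm38.p6), where 35 of the 44 listed genes have a sequence. Of these, 11 (31.4%) hold it, against 1056 of 27025 genes in the table (3.91%). The list includes known ATF4 targets, so a share above that of all genes was likely from the start and says nothing about 2K. Among the listed genes higher in 2K, 4 of 13 with a sequence hold it, and among those neither higher nor lower 6 of 20, so its presence did not sort them by their difference. The windows of the 4 genes that were higher, Nupr1, Slc7a11, Chac1 and Vldlr, and of Asns are shown, 5′ to 3′ on the gene's own strand, with 1 element per window in capitals, read on either strand. Slc7a11 holds a further match on the other strand, which begins in the last bases of its window and is left in lower case.
Nupr1, chr7:126625555-126625598, minus strand: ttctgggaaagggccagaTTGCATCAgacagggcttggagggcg
Slc7a11, chr3:50443654-50443697, minus strand: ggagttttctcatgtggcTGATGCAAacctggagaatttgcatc
Chac1, chr2:119351031-119351074, plus strand: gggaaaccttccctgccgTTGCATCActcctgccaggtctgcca
Vldlr, chr19:27216802-27216845, plus strand: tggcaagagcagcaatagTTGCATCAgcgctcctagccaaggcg
Asns, chr6:7693210-7693250, minus strand: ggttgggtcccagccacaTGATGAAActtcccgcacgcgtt
A match is a description of the letters and not evidence of binding. Vldlr, the very low density lipoprotein receptor, picked for its element, had 10.6 FPKM in 2K against 3.29 in R, and 4.67 FPKM in 3K against 3.61 in 1K.

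Transporters of amino acids and peptides included members lower in both pairs and members higher in both. Of 22 kept genes, 11 were lower and 6 higher in 2K, against 14.1% and 14.7% of all genes. The median was -0.98 in 2K against R, which became 0.51 on the scale of the epithelium list. In 3K against 1K the median was -1.37, and the same 11 were lower in both pairs. Slc15a1, the peptide importer PEPT1, had 57.5 FPKM in 2K against 396 in R, and 126 FPKM in 3K against 573 in 1K. Slc1a1, a glutamate and cysteine carrier, had 2.01 FPKM in 2K against 42.4 in R, and 8.23 FPKM in 3K against 22.1 in 1K. The higher members were led by Slc38a4, a hepatic carrier, with 226 FPKM in 2K, 1.24 in R, 3.08 in 3K and 0.309 in 1K. Of the 6 higher members, 5 were also higher in 3K than in 1K. Among them was Slc38a3, a glutamine carrier, with 141 FPKM in 2K against 1.74 in R, and 15.6 FPKM in 3K against 1.33 in 1K. Of 43 liver genes kept in both pairs, 37 were higher in both as well, so this rule does not set the carriers apart from liver RNA. The part of liver RNA in the values of the higher carriers was not tested.

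Neutrophil transcripts were higher in 2K and in 3K. Of 19 kept genes, 14 were higher and none lower in 2K, against 14.7% and 14.1% of all genes. The medians were 2.59 in 2K against R and 2.61 in 3K against 1K, and 13 were higher in both pairs. All 19 had at least 1 FPKM in 2K but only 11 in R, so the others were kept through 2K alone. The median in 2K against R was 1.51 with no floor and 1.85 with a pseudocount of 1. S100a8, the calgranulin that fills neutrophil cytosol, had 59.5 FPKM in 2K against 5.57 in R, and 73.4 FPKM in 3K against 2.88 in 1K. Ly6g, the surface marker of mouse neutrophils, had 16.7 FPKM in 2K and was listed at 0 in R, with 50.2 FPKM in 3K against 1.87 in 1K. Both were still higher in 3KR, with 1273 FPKM of S100a8 and 78.7 FPKM of Ly6g, and in 3KR the organ lists held 0.0942% of summed FPKM. In 2KR, RR, 1KR and C S100a8 ranged between 0.121 and 1.93 FPKM. Other members, picked after their values were seen, were not 2-fold apart: Csf3r, the receptor for the granulocyte growth factor, had 1.72 FPKM in 2K and 2.56 FPKM in R, and Mmp9 had 4.62 FPKM in 2K and 4.65 FPKM in R. Csf3r reached 36.8 FPKM in 3KR. The list's level in 3K was a median of 0.30 above that in 2K, and that of the acinar list 0.22 above. The part of neutrophils that came with pancreatic RNA was not tested.

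Cytokine and chemokine genes showed the same pattern. Of 23 kept genes, 17 were higher and 1 lower in 2K, against 14.7% and 14.1% of all genes. The medians were 1.43 in 2K against R and 1.62 in 3K against 1K, and 13 were higher in both pairs. Of the 23, 21 had at least 1 FPKM in 2K and 10 in R, so those under 1 FPKM in R were kept through 2K alone. With no floor the median in 2K against R was 1.38. Cxcl2, which attracts neutrophils, had 19.5 FPKM in 2K against 0.809 in R, and 31.1 FPKM in 3K against 0.609 in 1K. Cxcl1, its relative, had 19.8 FPKM in 2K against 0.402 in R, and 9.98 FPKM in 3K against 0.765 in 1K. Il1b, the inflammasome-processed interleukin 1 beta, had 11.1 FPKM in 2K against 0.970 in R, and 13.7 FPKM in 3K against 1.90 in 1K. For Cxcl2 and Il1b, 3KR exceeded both, with 303 and 248 FPKM, and the other 4 later libraries stayed at or under 2.88 FPKM. Cytokine genes in 3K lay a median of 0.12 above 2K. The acinar list in 3K lay 0.22 above 2K, and the stomach and liver lists lay 5.81 and 6.29 below it. The part of cells that came with pancreatic RNA was not tested.

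**Figure D5:**
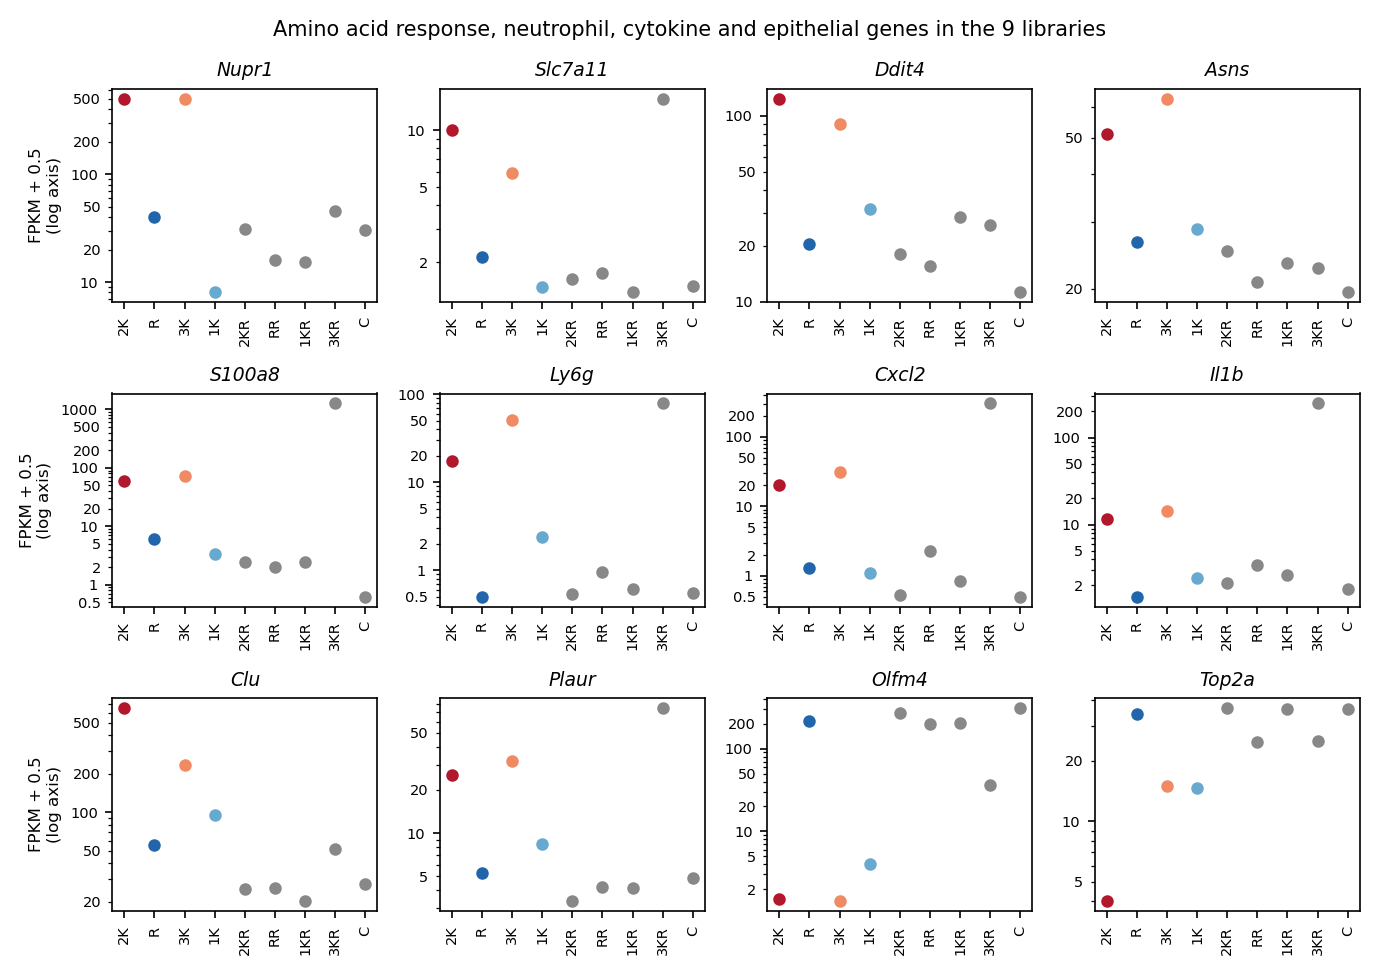
FPKM + 0.5 (log axis, a separate range in each panel) of 12 genes of the amino acid response, neutrophils, cytokines, regenerating epithelium, stem cells and cell division in the 9 libraries, 1 point per library. Nupr1, Ddit4, Asns and Clu are high in 2K and 3K; S100a8, Cxcl2 and Il1b are high in 2K and 3K and highest in 3KR; Top2a is lowest in 2K.

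Acute phase and complement genes combined both patterns. Of 27 genes, 26 were higher in 2K and none lower, with a median of 7.25, and of 5.47 after leaving out the 9 on organ lists. Saa2, a plasma amyloid protein of liver, had 4361 FPKM in 2K, 9.05 in R, 24.1 in 3K and 0.722 in 1K. Lcn2, the siderophore-binding lipocalin of neutrophils, inflamed epithelium and liver, had 3026 FPKM in 2K against 9.72 in R, and 643 FPKM in 3K against 10.9 in 1K. It reached 208 FPKM in 3KR, where the liver list held 0.0341% of summed FPKM, and at most 4.13 FPKM in 2KR, RR, 1KR and C. Lrg1, a leucine-rich glycoprotein of the acute phase, had 860 FPKM in 2K against 4.82 in R, and 282 FPKM in 3K against 7.35 in 1K. Saa3, the amyloid of epithelium and macrophages, had 739 FPKM in 2K against 30.6 in R, and 339 FPKM in 3K against 15.4 in 1K, with 185 FPKM in 3KR. Lcn2, Lrg1 and Saa3 were thus high in 3K as well, and the 3K level of Saa2 was far below that in 2K.

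The leading genes higher in both pairs on no organ list were mostly known from the exocrine pancreas. Reg2 and Reg3d, secreted lectins of the regenerating gene family, had 5027 and 237 FPKM in 2K against 0.127 and 1.14 FPKM in R, and Reg2 had 5394 FPKM in 3K against 0.166 in 1K. Pdia2 and Erp27, proteins of the endoplasmic reticulum abundant in acinar cells, had 73.2 and 23.0 FPKM in 2K against 0.280 and 0.0160 FPKM in R. Their levels in 3K, 53.3 and 25.1 FPKM, were near those in 2K, as for the acinar list. Among those with at least 1 FPKM in R and in at least 6 of the 8 other libraries, Cbs, which starts cysteine synthesis from homocysteine, had 206 FPKM in 2K against 2.75 in R, and 66.3 FPKM in 3K against 1.66 in 1K. Cbs also had 37.99 FPKM in 3KR and at most 5.08 FPKM in the other 4 later libraries. The part of liver and pancreas RNA in its values in 2K and 3K was not tested.

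Smooth muscle, B cell and MHC class II genes were lower in 2K against R and not in 3K against 1K. All 16 of the smooth muscle genes past 2-fold, of 20, were lower in 2K, with a median of -1.35, and 2K was the lowest of the 9 libraries for 17. Myl9, a myosin light chain of smooth muscle, had 61.1 FPKM in 2K against 206 in R, and 142 FPKM in 3K against 133 in 1K. Of 20 B cell genes, 12 were lower and none higher, with a median of -1.31, while in 3K against 1K the median was 1.13. Cr2, the complement receptor of follicular B cells, had 0.590 FPKM in 2K against 20.7 in R, and 4.73 FPKM in 3K against 3.99 in 1K. Of 12 genes that serve antigen presentation on MHC class II, 8 were lower and none higher, with a median of -1.46. Ciita, their master regulator, had 1.09 FPKM in 2K against 8.04 in R, and 2.60 FPKM in 3K against 3.44 in 1K. Of 156 immunoglobulin variable segments kept, which are near-identical copies used unevenly between animals, 142 were lower in 2K and 1 was higher. Relative to the epithelium list the 3 list medians were 0.14, 0.18 and 0.03, that is, muscle, B cell and MHC class II genes were lower by as much as the epithelium was. None of their genes was lower in both pairs.

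Glucocorticoid and clock genes included members that were higher in both pairs. Of 23 kept genes, 9 were higher and 1 lower in 2K, against 14.7% and 14.1% of all genes. Their median was 0.43, or -0.10 on a common sum of protein-coding genes. In 3K against 1K 5 were higher and 7 lower, with a median of -0.46. The 5 were higher in both pairs. Nfil3, a circadian repressor, had 21.6 FPKM in 2K against 2.31 in R, and 22.6 FPKM in 3K against 2.90 in 1K. Dusp1, a phosphatase induced by glucocorticoids and stress, had 75.6 FPKM in 2K against 12.9 in R, and 68.3 FPKM in 3K against 14.6 in 1K, with 107 FPKM in 3KR. Fkbp5, another glucocorticoid target, had 229 FPKM in 2K against 29.9 in R, but 125 FPKM in 3K against 240 in 1K. The hour of collection is not in the labels, and its part was not tested.

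Ribosomal protein genes, part of the translation machinery of every cell, were close in the 2 libraries. None of 36 was 2-fold apart in 2K against R, and their median was 0.25.

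Fewer genes were 2-fold apart after the return to a normal diet. In 2KR against RR, both sampled at day 33 and sharing no library with 2K and R, 455 of 17035 genes (2.67%) were higher and 626 (3.67%) lower. The medians of the epithelium, neutrophil and kynurenine lists were 0.09, 0.10 and -0.12, but those of the interferon response, acute phase and liver lists were 1.23, 0.95 and 0.94, and the organ lists held 0.131% of summed FPKM in 2KR and 0.0913% in RR. Maoa had 285 FPKM in 2KR against 226 in RR, and Slc15a1 383 FPKM in 2KR against 468 in RR. Oasl2, an interferon-induced gene, had 170.4 FPKM in 2KR against 29.0 in RR, and Ido1 had 3.06 FPKM in 2KR against 10.5 in RR.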

How the data were processed

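RNA from mouse intestinal tract was extracted with ISOGEN, depleted of ribosomal RNA and made into stranded libraries without the bead step that selects mRNA, per the labels' protocols. HISAT2, Cuffdiff 2.2.1 and GRCm38 are named in the submitters' processing notes. The deposited table holds FPKM values computed by the authors, 1 library per condition, with no counts. Fragments per library were estimated from the smallest step of FPKM times length in single-transcript genes of 1500 to 3000 bp of GENCODE M21, in which 241 genes of the table were not found. These depths limit precision only by counting error and carry no interval.

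Differences are of log2(FPKM + 0.5) for genes that reached 1 FPKM in 1 or both libraries compared, which understates low genes. With 1 library a side no test was made. The 60 gene lists and the members were chosen with earlier results of these data known. Genes were named by rule: up to 6 members of a list with the largest difference and those at steps of tryptophan, serotonin and NAD metabolism, and the 12 highest and 12 lowest genes on no organ list, with at least 5 FPKM and 2-fold apart in both pairs, with 12 more highest among genes with at least 1 FPKM in R and 6 of the 8 others; other genes are said to be picked later. Alternatives were other pseudocounts, floors, scalings and libraries in place of R; leaving organ list genes out of the counts was added after seeing the data. The counting was tested on simulated data. Python 3.11.15, pandas 2.3.3 and numpy 2.4.6 were used.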

Additional observations from a re-analysis of the deposited data

Results flagged for a closer look

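Gene lists whose medians were at least 2-fold apart in opposite directions in the 2 day 28 pairs were marked for a closer look. The proximal small intestine list had a median of 1.44 in 2K against R and -1.12 in 3K against 1K. The B cell list had a median of -1.31 in 2K against R and 1.13 in 3K against 1K. With 1 library per condition the difference between the pairs was not tested.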

How the results depend on the processing

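With 1 library per condition, no library could be left out and no result has an error. No paired analysis was possible because each condition has 1 library and the result comes from no test. The counts of higher and lower genes stayed within 1.5 times under other pseudocounts, no floor, median-of-ratios scaling, a common sum without organ list genes, and RR or C in place of R. Some list medians moved by more. The neutrophil median of 2.59 became 1.51 with no floor and 1.85 with a pseudocount of 1. The stomach median of 7.51 became 6.57 with a pseudocount of 1 and 9.32 with 0.1, and the acinar median of 7.62 became 8.98 with 0.1. Of the named genes, 19 moved by over 1.5 times with a pseudocount of 1 and 24 with 0.1. A floor of 5 FPKM left 1558 lower genes, 599 higher in both pairs and 708 lower in both, and moved the Hox median from -0.66 to -3.58. A common sum of protein-coding genes gave 1758 higher and 5079 lower genes, so that 25.71% of the called genes were higher, against 50.98% on the deposited scale. Scaling to the intestinal epithelium list, which raises every difference by its median, gave 13747 higher and 537 lower genes (96.24% higher), with 10545 higher and 102 lower in both pairs, and a median of all genes of 1.51. Under it, among values at least 2-fold apart, the sign turned for the medians of absorptive enterocytes (0.29), goblet cells (0.055), crypt base stem cells (0.45), smooth muscle (0.14), B cells (0.18), the cell cycle (0.10) and MHC class II presentation (0.030), and for Parp14 (0.15), Nadsyn1 (0.020), Oasl2 (0.28) and Ddc (0.35). It also turned for 5 smaller list medians, of which amino acid and peptide transporters became 0.51, Hox genes 0.83, interferon response 1.10, NAD consumers 1.33 and serotonin genes 1.35, and for 6 named genes under 2-fold. With RR in place of R the proximal small intestine median was -0.68, and 4 other list medians and 49 of 96 named genes moved by over 1.5 times. With C in place of R 6 list medians and 25 named genes did, among them enterocytes (-0.56), amino acid and peptide transporters (-0.18) and glucocorticoid and clock genes (2.18). The causes were not tested.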
